A study of Caenorhabditis elegans with 2 samples.

Results

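The genes of the small nuclear RNAs (snRNAs), the RNA components of the spliceosome, were examined for occupancy by HSF-1, the transcription factor of the heat shock response, in Caenorhabditis elegans. The set was every Ensembl gene of biotype snRNA on a nuclear chromosome, without the spliced leader genes, and held 99 of 46890 annotated genes. Binding was measured with ChIP-seq (chromatin immunoprecipitation and sequencing) in whole worms, young adults of 63 h, of the strain RW12254, genotype st12254[hsf-1::TY1::EGFP::3xFLAG]. In this strain genome editing inserted tags at the hsf-1 locus, and chromatin was pulled down through the fluorescent protein with an anti-GFP antibody. All worms carried the tagged allele and came from a culture synchronised by starving first-stage larvae after bleaching, and the labels name no heat treatment. There were 2 biological replicates of this 1 group, so no difference between conditions could be tested. Peaks from whole worms do not show in which cells a gene was bound, and the labelled stage could not be checked against marker genes because no RNA was measured.

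U1 snRNA pairs with the 5′ splice site of a pre-mRNA and U2 with its branch point, while U4 and U6 enter the spliceosome paired with each other and U5 holds the exons for joining. U1, U2, U4 and U5 genes are transcribed by RNA polymerase II and U6 genes by RNA polymerase III, and both kinds of promoter use a proximal sequence element that the factor SNAPc binds. SmY RNAs are nematode RNAs that bind Sm proteins and have been linked to spliced leader trans-splicing. HSF-1 binds heat shock elements, which are alternating repeats of GAA and TTC.

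Genes of U1, U2, U4, U5 and U6 were sorted by a short sequence typical of each RNA, and SmY genes by name. There were 12 U1, 19 U2, 5 U4, 11 U5 and 22 U6 genes, 10 SmY genes, and 20 other genes with none of these sequences or names. The sorting is approximate. F36A4.23, among the other genes, clustered with U6 genes at 98% identity, and the least alike pair sorted as U2 was 57.3% identical. The strongest occupied genes of U1, U2 and U4 are printed here because the results turn on them. The capitals mark the sequence used for sorting, which in U1 pairs with the 5′ splice site and in U2 with the branch point. All sequences are from the RefSeq assembly WBcel235, the same assembly as ce11, and are given 5′ to 3′ on the strand of the gene.
sup-6: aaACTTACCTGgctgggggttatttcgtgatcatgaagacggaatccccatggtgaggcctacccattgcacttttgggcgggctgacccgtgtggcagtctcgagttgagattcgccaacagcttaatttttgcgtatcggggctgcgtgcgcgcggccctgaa
Y57G11C.35: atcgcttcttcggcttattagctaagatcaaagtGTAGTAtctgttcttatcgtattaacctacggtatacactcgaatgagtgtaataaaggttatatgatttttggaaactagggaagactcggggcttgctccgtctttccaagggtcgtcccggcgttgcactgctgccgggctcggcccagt
F10D2.13: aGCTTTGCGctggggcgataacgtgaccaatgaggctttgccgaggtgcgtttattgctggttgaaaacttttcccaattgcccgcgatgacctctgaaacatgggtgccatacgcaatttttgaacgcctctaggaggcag

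The sup-6 gene is at chrII:12944803-12944967 on the minus strand, inside an intron of F58G1.7. Y57G11C.35 is at chrIV:14764848-14765034 on the minus strand, in an intron of Y57G11C.5. F10D2.13 is at chrV:7142717-7142858 on the minus strand, in an intron of ugt-37.

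The families differ in how alike their genes are, which limits how reads can be placed. The median identity between pairs of gene bodies was 95.2% in U1, 98.9% in U2, 99.0% in U4, 95.1% in U5, 99.0% in U6 and 70.9% in SmY. The 99 genes held 74 distinct sequences, and 14 U6 genes had the same sequence.

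A pooled HSF-1 peak lay at 32 of the 99 snRNA genes (32.3%, 95% Wilson interval 23.9 to 42%, counting error only). A gene was called occupied when a peak of the thresholded pooled list overlapped its body extended by 200 bp on each side. With the strongest peak taken for each gene, the 32 genes shared 30 peaks, because mir-1831 lies inside sup-39 and T27E4.22 overlaps T27E4.12. At sup-6 and F38E11.11 a second pooled peak overlapped the window and was not counted. By the same list, windows of the same shape at the starts of protein-coding genes were occupied in 5.11% of cases, genome tiles of the same width in 2.24% and all other genes with the same flank in 6.87%. The other short noncoding genes gave 25.5% for tRNA genes, 28.9% for snoRNA genes and 43.3% for spliced leader genes. The share of the whole set of 99 thus stood above that of coding starts, and its interval contained the shares of tRNA and snoRNA genes. The share of spliced leader genes (13 of 30, interval not computed) lay just above it. The 99 include 10 SmY and 20 other genes. Of the U1 to U6 genes alone, 27 of 69 were occupied. No interval was computed for them, so their place beside these classes is not given.

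Occupancy was uneven between families. U1 had 9 of 12 genes occupied (75%, interval 46.8 to 91.1%), U5 had 8 of 11 (72.7%, 43.4 to 90.3%) and U4 had 3 of 5 (interval 23.1 to 88.2%). The U2 family had 2 of 19 (10.5%, 2.94 to 31.4%) and U6 had 5 of 22 (22.7%, 10.1 to 43.4%). SmY had 3 of 10 (30.0%, 10.8 to 60.3%), and the other genes had 2 of 20 (interval 2.79 to 30.1%), both of which share their peak with a U1 gene. The intervals of U1 and U5 lay wholly above that of U2, whereas those of U4, U6 and SmY overlapped it. In each replicate list they overlapped. In replicate 1, U1 had 5 of 12 (19.3 to 68.0%), U5 had 5 of 11 (21.3 to 72.0%) and U2 had 1 of 19 (0.935 to 24.6%). In replicate 2, U1 had 7 of 12 (lower bound 32%), U5 had 7 of 11 (35.4 to 84.8%) and U2 had 4 of 19 (8.51 to 43.3%). Genes of a family are near-copies, often side by side, so these intervals treat as separate what may not be.

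**Figure D1:**
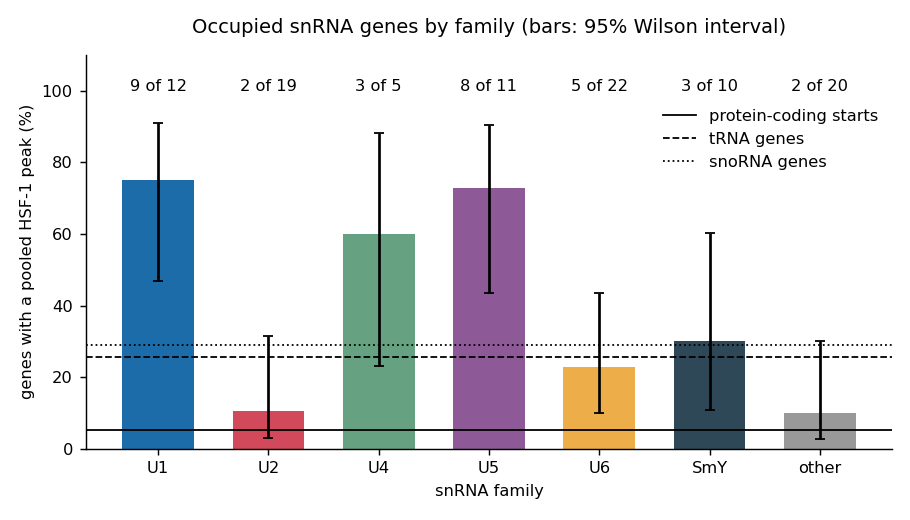
Share of genes of each snRNA family with a pooled HSF-1 peak (y axis, percent), with the 95% Wilson interval as error bar, the number of genes above each bar, and horizontal lines for protein-coding starts, tRNA genes and snoRNA genes. U1 (75%) and U5 (72.7%) stand highest, and U2 (10.5%) and the other genes (2 of 20) lowest.

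The U1 genes carried the strongest peak of the set. At sup-6, a U1 gene known from mutations that suppress splicing defects, the pooled signal was 715, and the replicates gave 242 and 415. Signal is the value deposited for each peak, and its scale was not shown to match between lists. The sup-6 peak ranked 101 by signal among 2935 pooled peaks, and its summit lay 163 bp downstream of the annotated start, near the end of the gene. H27M09.6, which lies between H27M09.5 and syp-4, had a pooled signal of 169, with 74.6 in replicate 1 and 86.6 in replicate 2. T08G5.11 had a pooled signal of 141, with 74.5 and 72.3 in the replicates. These 3 were in both replicate lists.

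The other U1 peaks were weaker and close together, from 72.5 at F40G12.14 to 105 at F40G12.13. At sup-39, a second U1 suppressor gene, the pooled signal was 103, with 55.1 in replicate 1 and 48.0 in replicate 2. T27E4.12 had a pooled signal of 102, with 51.3 and 61.5 in the replicates. F08H9.11 and F40G12.14 passed the threshold in the pooled list and in neither replicate list. The 3 unoccupied U1 genes had weaker peaks in the ranked list, which holds every peak before thresholding, with signals of 67.5 at T27E4.11, 60.6 at T27E4.10 and 35.6 at C27H5.11.

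The U5 genes came next, led by ZK897.3 with a pooled signal of 259, 119 in replicate 1 and 141 in replicate 2. This was the only snRNA peak besides sup-6 among the 500 strongest pooled peaks. F32B5.9 in an intron of cpz-1 had a pooled signal of 149, with 79.5 and 66.6 in the replicates. ZK897.4 had 113, with 64.3 and 58.5. The 3 were in both replicate lists, while the other 5 occupied U5 genes, with pooled signals from 75.6 to 101, were each in 1 replicate list. F42C5.12 shows what the threshold left out. Its ranked signal of 77.3 exceeded that of F38E11.11, the weakest occupied U5 gene, but its irreproducible discovery rate (IDR), a measure of how well peak ranks repeat, was 0.0101 against a threshold of 0.01, and it was in the replicate 1 list.

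Among U4 genes, F10D2.13 had a pooled signal of 135, with 60.2 in replicate 1 and 66.5 in replicate 2. C52E4.8 had 95.8, with 50.7 in replicate 1 and no replicate 2 peak overlapping the pooled peak, although another replicate 2 peak, of signal 30.4, touched its window. T11F9.15 had 72.7, with 21.4 and 60.7 in the replicates, the widest ratio between replicates in the set, and its summit lay 320 bp downstream of the start. The unoccupied T11F9.16 and K03B8.10 had ranked signals of 57.5 and 38.6.

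The U2 family was nearly devoid of thresholded peaks. Y57G11C.35 had a pooled signal of 101, with 43.0 in replicate 1 and 67.4 in replicate 2, and was in both lists. Y54G9A.8 had the weakest peak of the set, 67.3, with 30.0 and 49.7, and was in the replicate 2 list. Of the 17 unoccupied U2 genes, 14 had a ranked peak, with a median signal of 53.7 and a highest signal of 69.5 at C47F8.9, above that of Y54G9A.8. R05D7.6 and F08G2.10 were in the replicate 2 list without being in the pooled one.

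The 5 occupied U6 genes had pooled signals from 79.0 to 180. F54D8.7 had a pooled signal of 180, with 77.8 in replicate 1 and 102 in replicate 2. W05B2.8 had 169, with 77.1 and 84.0, and C28A5.7 had 123, with 53.6 and 61.6. These 3 were in both replicate lists, K09C6.12 with a pooled signal of 117 was in the replicate 2 list, and Y17G9A.85 with 79.0 was in neither. Of the 17 unoccupied U6 genes, 5 had no pooled ranked peak and the other 12 had a median signal of 32. The highest of them, T08B6.62 with 65.4 and R07E5.16 with 64.5, were in the conservative list, and 1 of the 5 with no pooled ranked peak was in the replicate 2 list with a signal of 50.3. W05B2.8, C28A5.7 and K09C6.12 belong to the 14 genes of 1 sequence, as do that gene and the unoccupied R07E5.16 and K09B11.14, the last with a ranked signal of 25.7.

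The 3 occupied SmY genes, smy-8, smy-9 and smy-10, had pooled signals of 83.9, 70.7 and 89.1. In replicate 1 their signals were 48.8, 35.4 and 43.7, and in replicate 2 they were 40.3, 38.5 and 58.0. Only smy-10 was in a replicate list, that of replicate 2. Of the 7 unoccupied SmY genes, 3 had no ranked peak and the others reached at most 41.0, at smy-1. The 18 unoccupied other genes reached at most 41.1, at T10H4.16, and 8 of them had no ranked peak.

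Across the set, the 30 peaks had a median signal of 101, close to the median of 92.6 over all pooled peaks and of 97.1 over peaks at coding starts. None was among the 100 strongest. Of the 67 unoccupied genes, 47 had a ranked peak, and the median signal of the strongest at each was 39.1. The median over all 97869 ranked peaks was 24.4. That value counts every peak, not the strongest in a window, so the 2 medians are not like for like. Any ranked peak touched 62.5% of coding starts and 56.9% of tiles, so a ranked peak on its own distinguishes little, and 79.8% of the snRNA genes had one. Just inside the threshold lay Y54G9A.8 (IDR 0.00689) and T11F9.15 (0.00425), and just outside lay F42C5.12 and T27E4.10 (0.0108).

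The replicates agreed moderately in the order of the peaks and differed in how many genes passed. The replicate 1 list held 18 snRNA genes (18.2%), against 2.43% of coding starts and 0.922% of tiles. The replicate 2 list held 29 (29.3%), against 3.25% and 1.37%. The conservative list of both replicates held 33 (33.3%), against 4.70% and 1.96%. Of the 32 occupied genes, 16 were in both replicate lists, 1 in that of replicate 1 alone, 10 in that of replicate 2 alone and 5 in neither. A gene counted as in a list when any peak of that list touched its window. The 16 include C52E4.8, where the replicate 2 peak did not overlap the pooled peak. Over the 29 peaks with a value in each replicate, Pearson's r of the log2 signals was 0.82 and Spearman's rho 0.63, and r was 0.68 without sup-6. These describe peaks of the same libraries and carry no test. The signal was higher in replicate 2 at 23 of the 29 peaks, with medians of 58.5 against 44.3 in replicate 1, and the numbers of reads are not known.

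**Figure D2:**
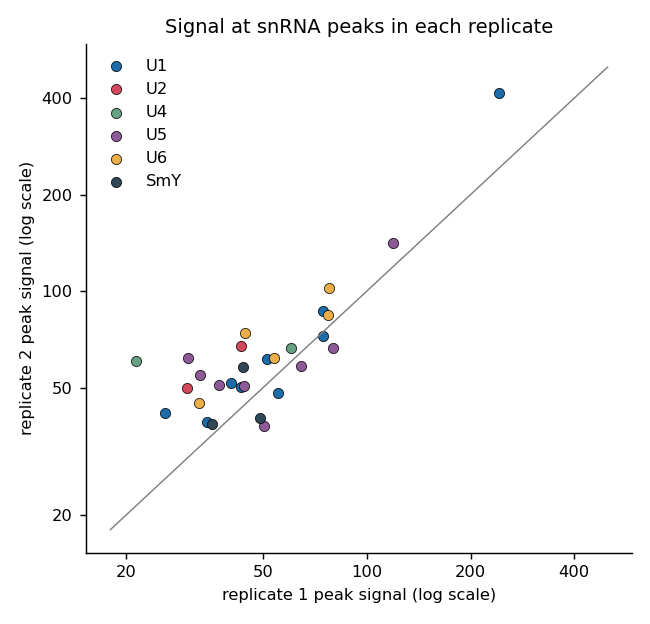
Signal of each snRNA peak in replicate 1 (x axis) and replicate 2 (y axis), both on log scales, coloured by family, with the line of equal signal. The sup-6 peak stands far from the rest at 242 and 415, and 23 of 29 peaks lie above the line.

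The summits mostly lay near the annotated starts of the snRNA genes. The median summit was 16.0 bp downstream of the annotated start, 22 of 30 lay within 50 bp of it and 24 within 100 bp. In the conservative list the median was 5.00 bp. Choosing peaks by overlap with the window keeps their summits near the gene, so these distances are a description. At F08H9.10 a coding start, that of F08H9.3, was nearer to the summit than the snRNA start, at 18 bp. At U6 genes every summit lay close by, between 28 bp before and 17 bp after the start. In SmY genes they lay from 30 to 45 bp downstream and in U2 genes from 23 to 41 bp upstream. In U1 and U5 genes they spread more widely, to 218 bp downstream at sup-39 and to 154 bp downstream at F38E11.10 and F38E11.11, which have the same position.

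**Figure D3:**
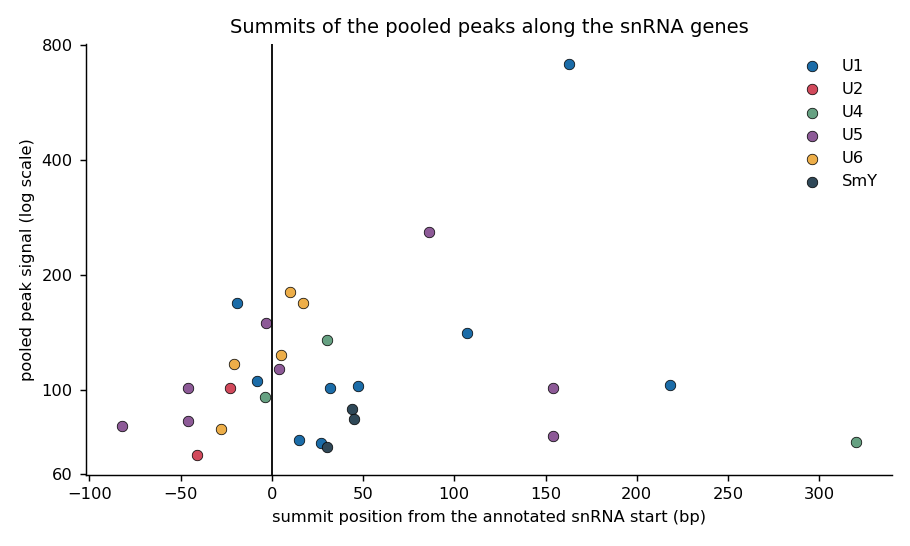
Summit position from the annotated snRNA start in bp (x axis, negative upstream, vertical line at the start) against pooled peak signal (y axis, log scale) for the 30 peaks, coloured by family. Most summits gather at the start, and T11F9.15 lies farthest away at 320 bp.

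Coding promoters lay at the snRNA peaks at a share near that of all pooled peaks. Of the 30 peaks, 17 (56.7%) overlapped a promoter window, which covers the 1000 bp before a coding start and the 200 bp after it, against 49.5% of all pooled peaks. By the summit, 15 did. Of the 44 snRNA genes whose window touched a coding promoter window, 20 were occupied, and of the 55 that touched none, 12 were occupied. Excluding genes with a coding start inside the window, 28 of 89 were occupied. The peak at C52E4.8 also lies at the promoter of snr-4, a Sm protein gene, with its summit 4 bp from the start of the U4 gene and 391 bp from that of snr-4. The F54D8.7 peak overlapped the promoter window of cox-6A, and the ZK897.3 and ZK897.4 peaks that of unc-31. The F38E11.10 peak overlapped the promoter window of F38E11.9, and the nearest coding start was that of hsp-12.3, a small heat shock protein gene, whose promoter window the peak did not overlap.

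The frequency of heat shock elements at the snRNA peaks could not be told apart from that at all pooled peaks. The element searched was 3 alternating units of GAA and TTC, in either order, with 2 bases between units, on both strands. It lay within 100 bp of the summit in 3 of 30 peaks (interval 3.46 to 25.6%), against 16.6% of all pooled peaks. With 1 mismatch it lay in 6 of 30 (interval 9.51 to 37.3%), against 29.4%. Both intervals contain the share of all peaks. The perfect elements at peaks were at sup-6, ZK897.3 and T11F9.15, of which the first pair were the strongest peaks and the third one of the weakest. Over the windows of all 99 genes, 4 held a perfect element, these 3 and the unoccupied U4 gene K03B8.10. The elements at the 3 peaks are printed on the plus strand, with the units in capitals, because they carry the match to the known HSF-1 motif.
sup-6: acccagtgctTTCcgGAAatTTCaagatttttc
ZK897.3: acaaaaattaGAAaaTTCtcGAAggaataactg
T11F9.15: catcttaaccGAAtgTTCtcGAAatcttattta

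The elements lay 178 bp, 135 bp and 255 bp downstream of the annotated starts of sup-6, ZK897.3 and T11F9.15, beyond the end of each gene, and 15, 49 and 65 bp from the peak summits. The printed stretches, which include bases on each side of the elements, are at chrII:12944773-12944805, chrIV:12786248-12786280 and chrV:11478387-11478419. The summits of these 3 peaks lay 163, 86 and 320 bp downstream of the start. Of the 7 peaks with a summit more than 50 bp downstream, 4 had no perfect element, namely sup-39, F38E11.10, F38E11.11 and T08G5.11.

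The bases upstream of the snRNA genes are shown for occupied and unoccupied genes of each family, because most summits lie near the start. Capitals mark any match to GGAACCC, to TGTCGG or to TATATAA, words found by comparing the upstream sequences of these same genes. The 80 bases end just before the annotated start and read 5′ to 3′ towards it. The U1 genes sup-6 and F40G12.13 were occupied and C27H5.11 was not. The U2 genes Y57G11C.35 and Y54G9A.8 were occupied and F11A5.14 was not.
sup-6: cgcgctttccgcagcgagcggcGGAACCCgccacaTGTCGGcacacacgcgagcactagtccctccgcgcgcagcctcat
F40G12.13: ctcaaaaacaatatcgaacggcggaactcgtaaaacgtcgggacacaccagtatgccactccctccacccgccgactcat
C27H5.11: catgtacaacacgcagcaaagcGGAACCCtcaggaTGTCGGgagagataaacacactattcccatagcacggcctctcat
Y57G11C.35: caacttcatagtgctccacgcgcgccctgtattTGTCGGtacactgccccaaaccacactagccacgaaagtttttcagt
Y54G9A.8: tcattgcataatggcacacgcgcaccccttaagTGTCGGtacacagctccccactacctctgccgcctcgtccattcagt
F11A5.14: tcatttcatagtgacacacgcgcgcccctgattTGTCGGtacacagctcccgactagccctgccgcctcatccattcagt

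Of the U4 genes, F10D2.13 was occupied and T11F9.16 was not. The U5 genes ZK897.3 and F07C6.5 were occupied and F42C5.12 was not. The U6 genes W05B2.8 and F54D8.7 were occupied and K09B11.14 was not. The SmY gene smy-10 was occupied and smy-4 was not.
F10D2.13: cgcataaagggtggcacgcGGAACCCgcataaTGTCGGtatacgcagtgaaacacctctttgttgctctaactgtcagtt
T11F9.16: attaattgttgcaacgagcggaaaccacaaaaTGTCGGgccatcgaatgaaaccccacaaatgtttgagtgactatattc
ZK897.3: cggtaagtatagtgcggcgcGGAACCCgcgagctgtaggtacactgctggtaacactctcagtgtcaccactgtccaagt
F07C6.5: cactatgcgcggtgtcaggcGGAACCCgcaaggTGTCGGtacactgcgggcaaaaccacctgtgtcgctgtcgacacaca
F42C5.12: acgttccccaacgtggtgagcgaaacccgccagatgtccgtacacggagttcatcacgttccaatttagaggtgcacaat
W05B2.8: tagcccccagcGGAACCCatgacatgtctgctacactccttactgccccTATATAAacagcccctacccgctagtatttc
F54D8.7: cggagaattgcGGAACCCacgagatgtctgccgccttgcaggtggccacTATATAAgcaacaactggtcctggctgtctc
K09B11.14: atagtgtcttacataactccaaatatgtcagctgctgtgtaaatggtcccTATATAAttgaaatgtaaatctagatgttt
smy-10: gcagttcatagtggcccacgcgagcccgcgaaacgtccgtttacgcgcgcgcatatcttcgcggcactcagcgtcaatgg
smy-4: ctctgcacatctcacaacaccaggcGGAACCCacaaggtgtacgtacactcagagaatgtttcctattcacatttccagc

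The word GGAACCC lay in the 100 bases upstream of 7 of 12 U1, 2 of 5 U4, 6 of 11 U5, 5 of 22 U6 and 5 of 10 SmY genes, and in none of the 19 U2 genes. Searched on both strands, it was in 0.210% of the same stretches upstream of protein-coding genes. Among U1 to U6, it was upstream of 48.1% of the 27 occupied and 16.7% of the 42 unoccupied genes. Within families the order differed. In U6, 3 of 5 occupied and 2 of 17 unoccupied genes had the word, and in U5 5 of 8 and 1 of 3. In U1, 4 of 9 occupied and all 3 unoccupied genes had it, in U4 1 of 3 and 1 of 2, and in SmY none of 3 occupied and 5 of 7 unoccupied genes. Over U1, U4 and U5 together it was upstream of 10 of 20 occupied and 5 of 8 unoccupied genes, so the word did not mark occupied genes across families.

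The word TGTCGG was upstream of 48.1% of occupied and 38.1% of unoccupied U1 to U6 genes and in 78.9% of U2 genes, most of them unoccupied, against 1.68% of coding genes. Without U2, it was upstream of 11 of 25 occupied and 3 of 25 unoccupied genes, and GGAACCC of 13 and 7. Of those 25 unoccupied genes 17 were U6, a family nearly without TGTCGG (0 of 5 occupied and 1 of 17 unoccupied genes). In U1, 6 of 9 occupied and 1 of 3 unoccupied genes had TGTCGG, in U4 2 of 3 and 1 of 2, and in U5 3 of 8 and 0 of 3. TATATAA, which resembles the TATA box of U6 promoters, was found in 15 of 22 U6 genes, against 4.05% of coding genes. It was also upstream of 3 of the 20 other genes, and of no U1, U2, U4, U5 or SmY gene. All 5 occupied U6 genes and 10 of 17 unoccupied ones had it, with a median start 31.0 and 30.0 bases upstream. In the printed bases C27H5.11 carries GGAACCC and TGTCGG and was unoccupied, whereas F40G12.13 carries neither as an exact match and was occupied. At the same places F40G12.13 has ggaactc and cgtcgg, each 1 base away from the word. All counts of words here are of exact matches.

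**Figure D4:**
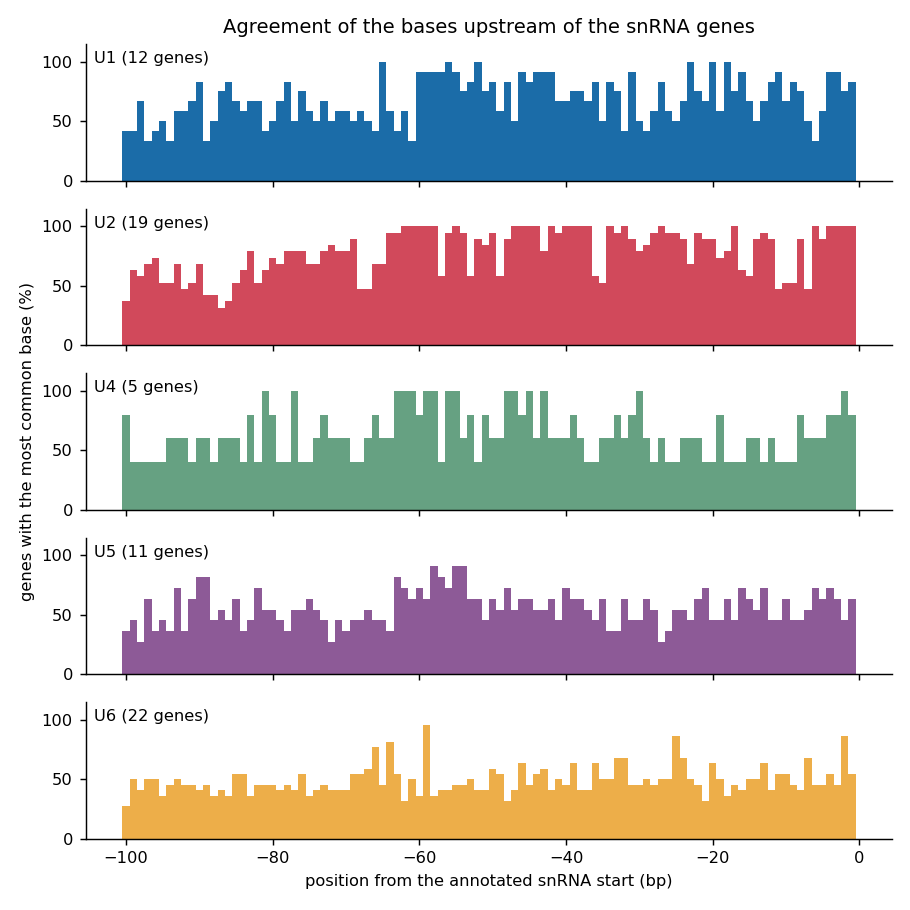
Share of genes of the U1, U2, U4, U5 and U6 families that carry the most common base at each position upstream of the annotated start (y axis, percent, from 0; x axis, bp from the start). Agreement is higher from 70 to 41 bp upstream than from 100 to 71 bp upstream in U1 (means 74.4% and 57.5%), U2 (86.1% and 62.1%), U4 (75.3% and 56.7%), U5 (61.8% and 50.9%) and U6 (50.8% and 43.7%); in U6 the 40 bp next to the start reach 52.4%, and SmY, not drawn, gave 45.0% and 46.0%.

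Many snRNA genes lie next to others of their family. With neighbours joined at a gap of at most 20000 bp, 64 genes fell into 23 groups. All genes were occupied in 6 groups, 1 of which is sup-39 with mir-1831 under 1 peak, none in 13 and some in 4. The 4 U5 genes ZK897.2, ZK897.3, ZK897.4 and F07C6.5, within 13640 bp, were all occupied by separate peaks. So were smy-8, smy-9 and smy-10 within 1432 bp. The 6 U6 genes in introns of mam-3, within 8062 bp, had no thresholded peak, nor did the 3 U6 genes in introns of F54C8.6. Of the 35 genes with no such neighbour, 12 were occupied, against 20 of the 64 in groups.

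The U2 family also stood apart by position and repetition. All 9 U2 genes on chromosome I were unoccupied, and 1 of 7 on chromosome II was occupied. For each gene the share of 50-base stretches in its window that occur once in the genome was computed, since reads from repeated stretches may not be placed. Its median was 60.3% over the 17 unoccupied U2 genes and 83.7% over the occupied pair, and it was 0% at F15H9.5 and F15H9.6. The unoccupied U1 genes T27E4.10 and T27E4.11 had 37.5% and 39.4%, and the occupied U1 genes 75 to 94.0%. The remaining unoccupied U1 gene, C27H5.11, had 88.3%, within the range of the occupied ones. In U5 the order was the reverse, with medians of 94.7% for unoccupied and 83.5% for occupied genes. In U4 the medians were 83.4% and 80.2%. In U6 the medians were 83.6% for unoccupied and 83.2% for occupied genes, but the lowest shares were 54.5% and 71.3%. The 6 unoccupied U6 genes in introns of mam-3 had 54.5 to 74.0%. The 3 in introns of F54C8.6 had 59.4%, 61.6% and 84.5%. Over all families, none of 7 genes under 50% were occupied, 2 of 20 from 50 to 75%, 21 of 36 from 75 to 90% and 9 of 36 above 90%. Among genes with at least 75%, a limit chosen after seeing the data, 9 of 10 U1, 2 of 6 U2, 3 of 5 U4, 8 of 11 U5, 3 of 12 U6 and 3 of 10 SmY genes were occupied. With this limit the interval of U2 (9.68 to 70.0%) overlapped those of U1 (59.6 to 98.2%) and U5 (43.4 to 90.3%). The sources used here give neither read length nor the handling of repeated reads. The part of repetition in the U1, U2 and U6 values was not tested.

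**Figure D5:**
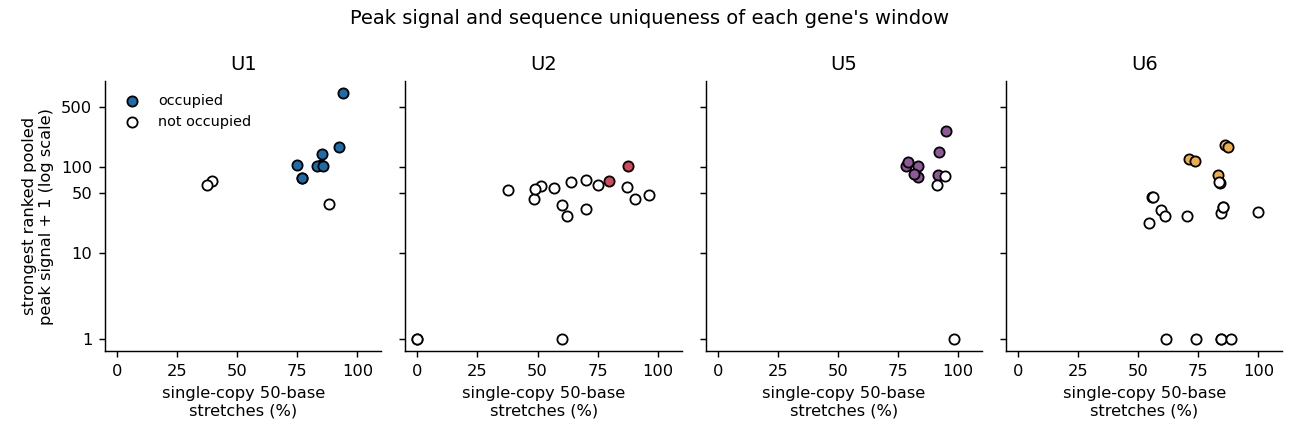
Share of single-copy 50-base stretches in each gene's window (x axis, percent) against the signal of its strongest ranked pooled peak plus 1 (y axis, log scale), for U1, U2, U5 and U6 genes, with occupied genes filled. Genes without a ranked peak stand at 1, and the U2 genes at 0% are F15H9.5 and F15H9.6.

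The protein side of the same machinery was described from lists of 57 genes, of which 52 were matched to the annotation. A pooled summit lay in the promoter window of 12 of these (23.1%, interval 13.7 to 36.1%), against 7.63% of all protein-coding genes. In each replicate list the count was 8 of 52 (15.4%), and the share of all coding genes is not given for those lists. The lists were chosen with earlier results of these data known, so the shares are a description. The 12 genes of the pooled list include snr-4, whose peak is the one at the U4 gene C52E4.8 and is counted among the snRNA peaks as well. By list, 3 of 15 Sm and LSm genes, 2 of 16 other snRNP protein genes and 7 of 21 genes for snRNA transcription, 3′ end formation and assembly were bound. The strongest was snpc-3.4, a subunit gene of SNAPc, with a pooled signal of 958, 415 in replicate 1 and 536 in replicate 2. Next was smn-1, whose protein assembles Sm proteins on snRNAs, with 302, and 127 and 166 in the replicates. The helicase gene snrp-200, whose human counterpart unwinds U4 from U6, had 205, with 76.4 and 135.

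The remaining peaks of these lists were weaker, from 63.4 at lsm-5 to 95.9 at ints-9, a subunit gene of the Integrator complex that cleaves snRNA precursors. The other bound genes were snr-4, lsm-8, teg-4, snpc-3.1, tbp-1, ints-7 and ints-8. The peaks at lsm-5, tbp-1, ints-7 and ints-8 were in neither replicate list. The signal at snpc-3.4 exceeded that at every snRNA gene.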

How the data were processed

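Peak lists of 2 biological replicates of 1 group were used. The deposited lists hold thresholded or ranked peaks for each replicate and for both replicates together, on ce11, per the file listings. The signal of each peak and the −log10 of its irreproducible discovery rate are values the authors deposited. The sources used here give no aligner, peak caller or read total. Depth is therefore unknown, and intervals cover only the counting of genes or peaks. The ranked tables held 16 columns of values for single peak sets with no sample named, which stayed unused.

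Genes came from Ensembl release 115, and all 99 matched RefSeq genes at the same coordinates, whose names are used because 32 genes share an Ensembl name. The strongest overlapping pooled peak (at least 1 bp) was taken for each gene, and replicate values came from the ranked peak of each replicate that overlaps it, with the nearest summit. The genes, protein lists and upstream words were chosen with earlier results of these data known. Named genes were the 3 strongest of each family, those in both replicate lists, the strongest unoccupied ones, members of families without a peak and the strongest bound protein genes; further genes were named after their values were seen. No test was run. Alternatives changed the list, the overlap rule, the flank, the promoter window and the element. Python 3.11.15, numpy 2.4.6, pandas 2.3.3 and edlib 1.3.9 were used, and the calling was tested on simulated data. The gene sequences of U5 and U6 are not reported here.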

Additional observations from a re-analysis of the deposited data

How the results depend on the processing

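With 1 replicate list in place of the pooled list, the share of occupied snRNA genes ranged from 18.2% to 29.3%, and the median signal at occupied genes from 60.7 to 65.8, on scales not shown to match. In those lists the occupied genes ranged from 5 to 7 in U1, 1 to 4 in U2, 5 to 7 in U5, 3 to 5 in U6 and 0 to 1 in SmY, and the intervals of U1 and U5 no longer lay above that of U2. The share was 21.2% in the stronger 50% of the pooled list and 79.8% with any ranked peak. By gene body alone, 1 of the other genes was occupied. Restricted to genes with at least 75% single-copy stretches, an alternative chosen after seeing the data, 3 of 12 U6 genes were occupied. The main values were 5 of 22 in U6 and 2 of 19 in U2. With this limit U2 had 2 of 6, and its interval overlapped those of U1 and U5. With a promoter window of 500 and 100 bp, 33.3% of the snRNA peaks overlapped a coding promoter, and the share of all pooled peaks is not given for that window. The cause was not tested. The median summit position, 16.0 bp, was 5.00 bp with the conservative list, within the SD of 18.4 bp between the replicate lists. The other alternatives stayed within the interval of the main share, within 1.5 times the main count or within the spread between replicates. Sequencing depth, which is unknown, limits what an absent peak shows. No paired analysis was possible because there is 1 group.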
